A study of Mus musculus with 8 samples.

Results

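The transcripts of 10 genes of the DNA damage response were followed in fetal mouse germ cells with and without SNF5, which belongs to the core of SWI/SNF, a complex that remodels chromatin. The 10 genes are the apical kinases Atm and Atr, the effector kinases Chek1 and Chek2, the break sensors Mre11a, Rad50 and Nbn, and the mediators Mdc1, Topbp1 and Brca1. They were chosen by name, and all 10 were found among the 23634 named genes of the female table and the 23360 of the male table. All 10 passed the filter of a mean of at least 1 FPKM in both sexes, which kept 11520 genes in females and 12269 in males. RNA-Seq had been carried out at E15.5 on germ cells sorted by Oct4-EGFP, a transgene that marks germ cells with a fluorescent protein, with 2 control and 2 Snf5 CKO libraries from each sex. Snf5 CKO embryos carried one floxed and one deleted Snf5 allele (Snf5 fx/Δ) together with TNAP-Cre, and the controls were a mixture of Snf5 fx/+, Snf5 fx/Δ and Snf5 fx/+ with TNAP-Cre. TNAP-Cre is driven from the alkaline phosphatase gene and recombines in most but not all primordial germ cells, so by the study's own account some Snf5 CKO germ cells keep SNF5. The labels give C57BL/6 as the strain background of all samples, whereas the study's methods describe a mixed one. By the study's supplement germ cells of several embryos were combined for the female and the male control libraries, while male Snf5 CKO replicate 2 came from a single embryo and male Snf5 CKO replicate 1 is listed as separate single embryos. The labels do not say which embryos went into which library, so each p measures the spread between libraries.

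ATM and ATR are large kinases that start the response to broken DNA and to stalled replication forks, respectively. ATM is recruited to double-strand breaks by the MRE11, RAD50 and NBN complex and activates CHK2, whereas ATR is activated by TOPBP1 on single-stranded DNA and activates CHK1. MDC1 spreads the signal along chromatin by binding phosphorylated H2AX, and BRCA1 directs resected ends to homologous recombination. At this stage normal female germ cells are in meiotic prophase, in which programmed breaks are made and the same kinases act on unsynapsed chromosomes. Normal male germ cells rest in mitotic arrest. By the study's account, most female Snf5 CKO germ cells lacked a meiotic marker at this stage. In males, more Snf5 CKO than control germ cells were still cycling. The study also placed the Snf5 CKO profiles at an earlier stage than E15.5. Developmental stage and genotype therefore cannot be told apart in these libraries.

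FPKM, the unit of all levels below, is a fragment count scaled by transcript length and by the mapped fragments of the library. Since no counts are given, the depth is unknown and no counting interval is given. The members made up between 0.0161% and 0.128% of the FPKM of named genes in a library, and rows without a gene name held between 5.46% and 42.1% of all FPKM. This unnamed share was 6.56% (control) and 5.46% (Snf5 CKO) in male replicate 1, and 42.1% and 35.4% in male replicate 2. For female replicates 1 and 2 it was 36.7% and 35.3% in control, and 9.94% and 28.2% in Snf5 CKO. Its part in the members' values was not tested. Smarcb1, the symbol of Snf5 in the tables, was at 23.4 and 22.3 FPKM in female controls and at 4.24 and 2.47 FPKM in female Snf5 CKO, a log2 fold change of -2.48 (adjusted p = 0.00027, limma). In males Smarcb1 was at 141 and 167 FPKM in controls and at 8.73 and 10.1 FPKM in Snf5 CKO, a log2 fold change of -3.90 (adjusted p = 0.0021, limma). Of 6 listed germ cell markers, Ddx4 and Dazl were at 203 FPKM or more in all libraries. In female controls Nanos3, Dnd1, Kit and Pou5f1 lay between 0.447 (Nanos3) and 16.7 FPKM (Pou5f1). Every difference was tested within a sex with limma on log2(FPKM + 1), a scale on which changes at low values are compressed, and p was adjusted by Benjamini-Hochberg over all genes tested. Calls needed an adjusted p under 0.05 together with a log2 fold change of 1 or more, or of -1 or less. For one gene, the smallest two-sided p that exact permutation allows with 2 libraries per genotype is 0.333. Female and male tables were normalized separately, so no level was tested between the sexes.

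In female germ cells the members were mostly lower in Snf5 CKO. At an adjusted p under 0.05, 8 of the 10 fell and 1 rose, against a background of 34.7% of all genes tested that fell and 27.0% that rose. With the size limit, Atm, Atr, Mre11a, Mdc1 and Topbp1 were called lower, where 21.6% of all genes were, and Chek2 was called higher, where 17.3% were. The median log2 fold change of the 10 members was -1.13, and that of all genes tested was -0.13. In male germ cells no member fell and 4 rose at an adjusted p under 0.05, against 25.3% and 21.0% of all genes. At an unadjusted p under 0.05, 1 male member was lower (Atr), against 29.8% of all genes, and the same 4 were higher, against 25.0%. Chek1, Mdc1 and Topbp1 were called higher in males, where 14.4% of all genes were, and no member was called lower, where 17.5% were. The male median was 0.57 for the members and -0.07 for all genes. With the replicate number as a block, 2 members were lower and 5 higher in males at an adjusted p under 0.05, against 41.2% and 35.1% of all genes, and the female counts stayed at 8 and 1, against 42.6% and 34.1%. The Snf5 CKO pair was entirely below the control pair for 8 members in females (45.1% of all genes) and entirely above it for 1 (36.4%). In males it was below for 2 members (40.0% of all genes) and above for 4 (34.6%). In bulk RNA, fewer cells of a type and less RNA per cell cannot be told apart.

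**Figure D1:**
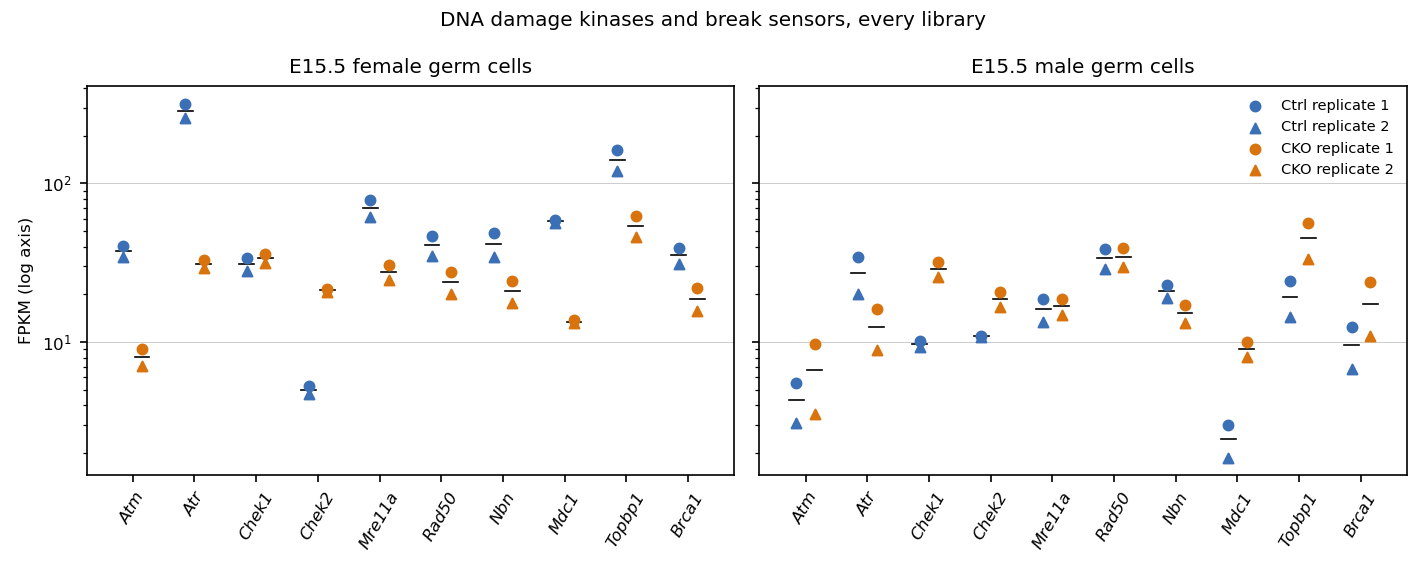
FPKM (log axis) of the 10 members in every library, with females on the left and males on the right. Blue points are controls, orange points are Snf5 CKO, circles and triangles are replicates 1 and 2, and short black lines are means of 2 libraries; female Atr lies between 256 and 317 FPKM in control and near 30 in Snf5 CKO, and replicate 2 lies below replicate 1 for all 10 members in each group.

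In control females the members lay in a wide range. Atr had the highest level, 287 ± 43.2 FPKM (SD, n = 2), followed by Topbp1 at 141 ± 29.6, Mre11a at 69.7 ± 11.9 and Mdc1 at 57.7 ± 1.37 FPKM. Nbn, Rad50, Atm, Brca1 and Chek1 followed between 41.5 and 31.0 FPKM, and each of these 5 had libraries that overlapped with those of its neighbour in the order. Chek2 was lowest, at 5.02 ± 0.437 FPKM. In female Snf5 CKO the order was changed: Topbp1 was highest at 54.2 ± 11.7 FPKM, Chek1 and Atr followed with overlapping libraries at 33.8 ± 3.30 and 31.1 ± 2.71 FPKM, and Atm was lowest at 8.08 ± 1.43 FPKM. In control males Rad50 was highest at 33.7 ± 6.81 FPKM and Atr was second at 27.1 ± 10.1 FPKM, with overlapping libraries, while Atm and Mdc1 were lowest at 4.31 ± 1.73 and 2.44 ± 0.80 FPKM. In male Snf5 CKO Topbp1 moved to the top at 45.0 ± 16.2 FPKM, overlapping with Rad50 at 34.4 ± 6.38 FPKM.

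Atr, the kinase of the replication stress and unsynapsed chromatin response, showed the largest female difference of the 10. Its locus is on chromosome 9 (GRCm38, 95857597 to 95951781, plus strand), as do Atm, Chek1, Mre11a and Topbp1. Female control replicates 1 and 2 were at 317 and 256 FPKM, and the female Snf5 CKO replicates at 33.1 and 29.2 FPKM. The groups were well separated, with Snf5 CKO 9.22-fold lower, a log2 fold change of -3.16 (standard error, SE, 0.19, adjusted p = 9.7e-05, limma). In males Atr was at 34.3 and 20.0 FPKM in control and at 16.1 and 8.89 FPKM in Snf5 CKO. Both male Snf5 CKO libraries were below both controls, but the log2 fold change of -1.06 (SE 0.38) did not pass the test (adjusted p = 0.073, limma), and it passed with the replicate number as a block (adjusted p = 0.00020). It also passed without male control replicate 2 (log2 fold change -1.44, adjusted p = 0.018, limma) or without male Snf5 CKO replicate 1 (-1.46, adjusted p = 0.014, limma).

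The female Atr row has limits. It spans 95855418 to 96057792 on chromosome 9 in the female table, past the annotated end of Atr and over the downstream gene Xrn1, whereas the male row ends at 95951845. Xrn1 has a row of its own with the same span, at 7.34 and 6.25 FPKM in female controls and at 7.23 and 5.71 FPKM in female Snf5 CKO. An annotated antisense RNA, 1700065D16Rik, overlaps the 5′ end of Atr, and because the library kit does not mark strand, reads of the shared stretch cannot be told apart. 1700065D16Rik was at 9.68 and 12.6 FPKM in female controls and at 0.119 and 0.558 FPKM in female Snf5 CKO, far below the level of Atr. The female table also has a further Atr row with a mean of 0.709 FPKM, which was not used.

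Atm, the kinase of the double-strand break response, maps to chromosome 9 (53439149 to 53536740, minus strand). It was at 40.1 and 34.5 FPKM in female controls and at 9.09 and 7.07 FPKM in female Snf5 CKO. The groups did not overlap, and Atm was 4.62-fold lower, with a log2 fold change of -2.08 (SE 0.20, adjusted p = 0.00025, limma). In males Atm was at 5.54 and 3.09 FPKM in control and at 9.81 and 3.53 FPKM in Snf5 CKO, so that the groups overlapped. The male difference of 0.44 on the log2 scale had a 95% interval from -0.80 to 1.67 (adjusted p = 0.50, limma). Without male Snf5 CKO replicate 2 it was 1.06 (adjusted p = 0.032, limma), and without replicate 1 it was -0.19. Both apical kinases thus fell in females, whereas in males neither passed the test without the replicate block. With the block male Atr was lower (log2 fold change -1.06, adjusted p = 0.00020, limma), and male Atm did not pass.

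Chek1, the effector kinase under ATR, maps to chromosome 9 (36708482 to 36727065, minus strand). In females it was the one member without a detectable difference, at 34.0 and 27.9 FPKM in control and at 36.1 and 31.4 FPKM in Snf5 CKO. The groups overlapped, and the log2 fold change of 0.13 had a 95% interval from -0.31 to 0.56 (adjusted p = 0.57, limma). In males Chek1 was at 10.1 and 9.31 FPKM in control and at 31.8 and 25.8 FPKM in Snf5 CKO. It rose 2.96-fold, a log2 fold change of 1.47 (SE 0.19, adjusted p = 0.0045, limma), with no overlap.

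Chek2, the effector kinase under ATM, rose in both sexes. It maps to chromosome 5 (110839979 to 110874145, plus strand). In females it went from 5.32 and 4.71 FPKM in control to 21.5 and 20.8 FPKM in Snf5 CKO, 4.22-fold higher, with a log2 fold change of 1.88 (SE 0.18, adjusted p = 0.00025, limma). It was the only member that rose in females. In males Chek2 was at 11.0 and 10.8 FPKM in control and at 20.6 and 16.6 FPKM in Snf5 CKO, a log2 fold change of 0.71 (SE 0.19, adjusted p = 0.034, limma), with no overlap. The male difference, under the size limit of a call, no longer passed when any single library was left out (adjusted p between 0.052 and 0.19, limma) or in 3 of the other settings (adjusted p up to 0.40).

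**Figure D2:**
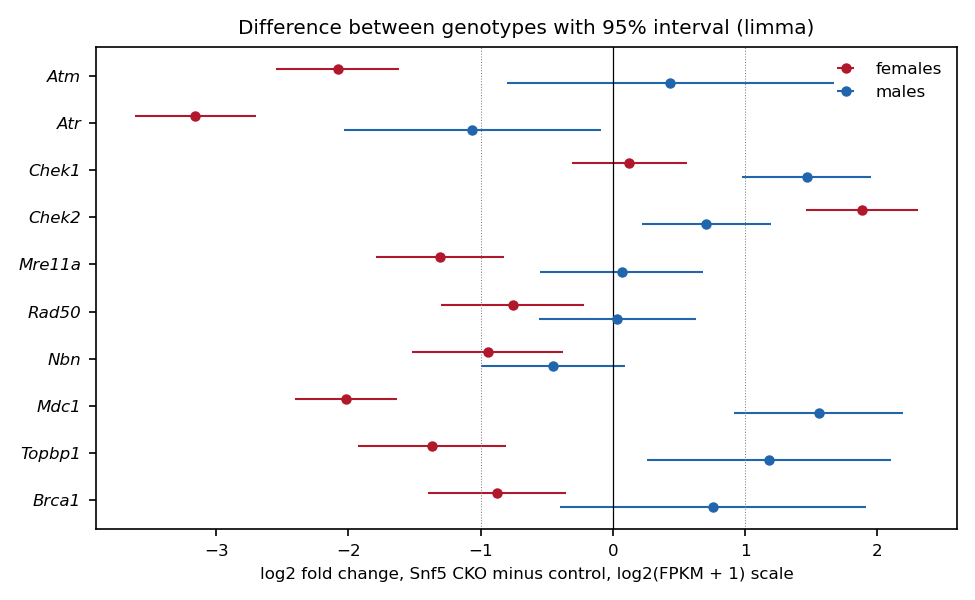
Log2 fold change of each member, Snf5 CKO minus control, on the log2(FPKM + 1) scale, with unadjusted 95% intervals from limma (n = 2 against 2 in each sex). Red points are females and blue points are males, dotted lines mark -1 and 1, and for Mdc1 and Topbp1 the intervals of both sexes leave out 0, on opposite sides.

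The break sensors all fell in females, and in males none passed the test without the replicate block. Mre11a, the nuclease of the complex, maps to chromosome 9 (14784654 to 14837123, plus strand). It was at 78.1 and 61.2 FPKM in female controls and at 30.6 and 24.5 FPKM in female Snf5 CKO. The groups did not overlap, and the log2 fold change was -1.31 (SE 0.20, adjusted p = 0.0017, limma). Mre11a overlaps its neighbour Ankrd49 at the 5′ ends, on opposite strands, so a part of its reads cannot be told apart from those of that gene.

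Rad50, the ATPase that bridges the broken ends, maps to chromosome 11 (53649519 to 53707319, minus strand). It was at 46.9 and 35.1 FPKM in female controls and at 27.6 and 20.1 FPKM in female Snf5 CKO. The log2 fold change was -0.76 (SE 0.23, adjusted p = 0.025, limma), with no overlap. Rad50 no longer passed in 6 of 14 settings, among them without female control replicate 1 (log2 fold change -0.55, adjusted p = 0.10, limma) or female Snf5 CKO replicate 2 (-0.54, adjusted p = 0.11, limma). Nbn, the subunit that binds ATM, maps to chromosome 4 (15957925 to 15992589, plus strand). It was at 48.6 and 34.4 FPKM in female controls and at 24.3 and 17.6 FPKM in female Snf5 CKO. Nbn fell without overlap, with a log2 fold change of -0.95 (SE 0.24, adjusted p = 0.013, limma). Female Nbn no longer passed in 2 of 14 settings, on linear FPKM (adjusted p = 0.058, limma) and without moderation (adjusted p = 0.16, limma).

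In males the values of Mre11a and Rad50 overlapped between the genotypes. Mre11a was at 18.8 and 13.5 FPKM in control and at 18.8 and 14.9 FPKM in Snf5 CKO, with a log2 fold change of 0.07 and a 95% interval from -0.55 to 0.68. Rad50 was at 38.5 and 28.8 FPKM in control and at 38.9 and 29.9 FPKM in Snf5 CKO, with a log2 fold change of 0.03 and a 95% interval from -0.56 to 0.63. Nbn was at 23.0 and 19.1 FPKM in male controls and at 17.1 and 13.2 FPKM in male Snf5 CKO. The groups did not overlap, but the log2 fold change of -0.45 did not pass the test (adjusted p = 0.14, limma) except with the replicate block (adjusted p = 0.0047).

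Mdc1, the adaptor that binds phosphorylated H2AX, differed in opposite directions in the 2 sexes. It maps to chromosome 17 (35841515 to 35859670, plus strand). In females it was at 58.6 and 56.7 FPKM in control and at 13.8 and 13.1 FPKM in Snf5 CKO, 4.28-fold lower, with a log2 fold change of -2.02 (SE 0.16, adjusted p = 0.00015, limma). In males it was at 3.01 and 1.88 FPKM in control and at 10.0 and 8.07 FPKM in Snf5 CKO, with a log2 fold change of 1.56 (SE 0.25, adjusted p = 0.0077, limma). The groups did not overlap in either sex. In male Snf5 CKO replicate 2 the authors' software marked the Mdc1 value as a failed quantification, the only such mark in that library. Without that library the male log2 fold change was 1.70 (adjusted p = 0.0013, limma).

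Topbp1, the activator of ATR, also differed in opposite directions. It maps to chromosome 9 (103305215 to 103350428, plus strand). In females it was at 162 and 120 FPKM in control and at 62.5 and 45.9 FPKM in Snf5 CKO, a log2 fold change of -1.37 (SE 0.23, adjusted p = 0.0025, limma). In males it was at 24.3 and 14.3 FPKM in control and at 56.4 and 33.6 FPKM in Snf5 CKO, a log2 fold change of 1.18 (SE 0.36, adjusted p = 0.047, limma). No library overlapped between the genotypes in either sex. Within each replicate number the male ratio of Snf5 CKO to control was 2.32 and 2.35. The male call lies near the threshold and was lost in 8 of 14 settings. It was lost without male control replicate 2 (log2 fold change 0.82, adjusted p = 0.12, limma) or without male Snf5 CKO replicate 1 (0.81, adjusted p = 0.11, limma). It was also lost with no filter (adjusted p = 0.073, limma), with a mean of at least 5 FPKM (0.054), after rescaling to a common sum (0.11), without the trend (0.052), on linear FPKM (0.13) and without moderation (0.25).

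Brca1, the recombination mediator, maps to chromosome 11 (101488764 to 101551955, minus strand). In females it was at 39.1 and 31.2 FPKM in control and at 21.9 and 15.7 FPKM in Snf5 CKO. It fell without overlap, with a log2 fold change of -0.88 (SE 0.22, adjusted p = 0.012, limma). Female Brca1 no longer passed in 2 of 14 settings, among them without moderation (adjusted p = 0.14, limma). The other was without female Snf5 CKO replicate 2 (log2 fold change -0.65). In males it was at 12.4 and 6.73 FPKM in control and at 23.9 and 10.9 FPKM in Snf5 CKO. The male groups overlapped, since replicate 2 was at 54.2% of replicate 1 in control and at 45.6% in Snf5 CKO, and the log2 fold change of 0.76 did not pass the test (adjusted p = 0.23, limma). It passed with the replicate block (adjusted p = 0.0019) and without male Snf5 CKO replicate 2 (log2 fold change 1.29, adjusted p = 0.014, limma).

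Ratios within a library do not depend on its scaling, and they are given as a description. In females the ratio of Mre11a to Rad50 was 1.67 and 1.75 in control and 1.11 and 1.22 in Snf5 CKO, whereas in males all libraries lay between 0.468 and 0.498. The ratio of Nbn to Rad50 was lower in Snf5 CKO in both sexes, at 0.881 and 0.876 against 1.04 and 0.979 in females and at 0.441 and 0.443 against 0.598 and 0.661 in males. The ratio of Chek1 to Chek2 was 6.39 and 5.92 in female controls and 1.68 and 1.51 in female Snf5 CKO. In males this ratio moved the other way, from 0.920 and 0.859 in control to 1.54 and 1.56 in Snf5 CKO. Topbp1 rose relative to Atr in both sexes, from 0.511 and 0.469 to 1.89 and 1.57 in females and from 0.708 and 0.716 to 3.50 and 3.78 in males. Atm was likewise higher relative to Atr in Snf5 CKO, with 0.126 and 0.135 in control and 0.275 and 0.242 in Snf5 CKO in females, and 0.162 and 0.154 against 0.607 and 0.397 in males.

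**Figure D3:**
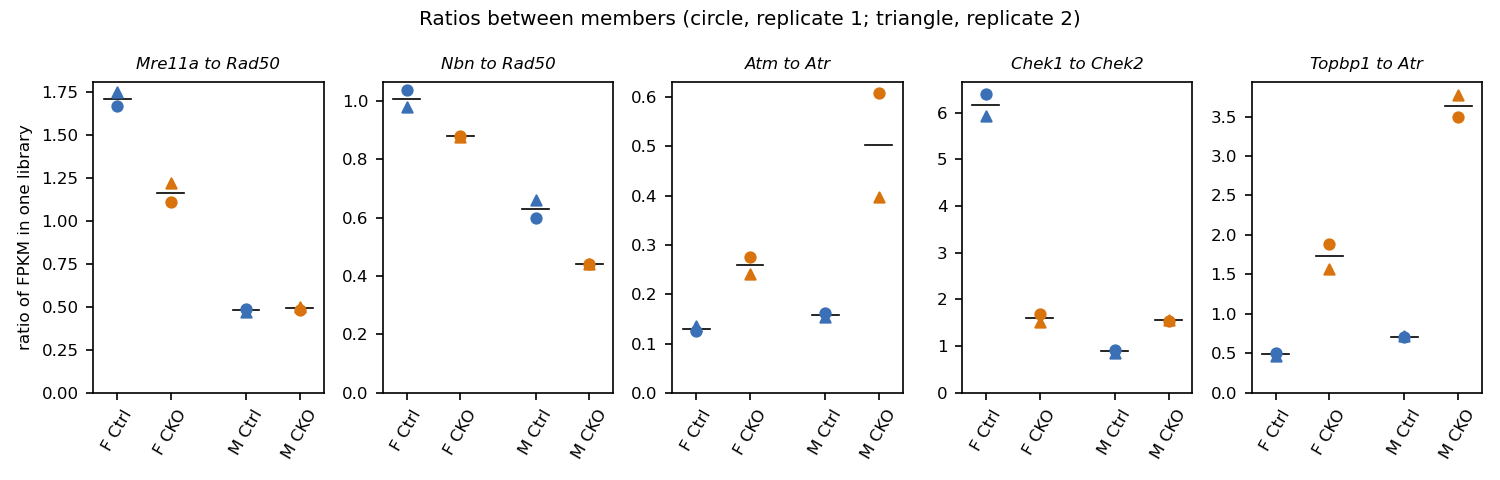
Ratio of the FPKM of 2 members in the same library, for 5 pairs, in female (F) and male (M) control and Snf5 CKO germ cells. Circles and triangles are replicates 1 and 2 and black lines are means of 2 libraries; all axes start at 0, and the ratio of Topbp1 to Atr is higher in Snf5 CKO than in control in both sexes.

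Promoters were searched after 4 members were seen to rise in males, so the matches were read with that result known. RefSeq sequences (GRCm38.p6) were at hand for 8 members: Atm, Atr, Brca1, Chek1, Chek2, Mdc1, Mre11a and Topbp1. In the 250 bases before the RefSeq start, on both strands, an E2F-type motif (TTTCCCGC, TTTCGCGC, TTTGCCGC or TTTGGCGC, elements of cell cycle genes) was found in Chek2, Mdc1 and Topbp1, 3 of 8, against 1.91% of 27025 promoters. These 3 are among the 4 that rose in males, and Chek1, the other one, had no match in its 250 bases. Those bases of Chek1 lie inside the gene as annotated by GENCODE, so the bases before its GENCODE start were not searched. The motif CNCCTCAG, the type bound by the meiotic regulator STRA8, was found in 0 of 8 members and 6.39% of all promoters. TTTGAA, the core of the cell cycle element CHR, was found in 0 of 8 and 16.3%, and CCAAT in 5 of 8 and 34.5%. The motifs do not overlap in the stretches shown. Of the 3 members with an E2F-type match, Mdc1 and Topbp1 fell in females (log2 fold changes -2.02 and -1.37), and Chek2 rose in both sexes. A match is a description of the letters and not a binding site. The part of the motifs in the members' differences was not tested. The stretches with the E2F-type letters in capitals are printed on the strand of the gene, in full for Mdc1 and as 30 bases around the match for Chek2 and Topbp1.
Chek2, chr5:110839820-110839849, plus strand: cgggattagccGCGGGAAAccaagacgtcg
Topbp1, chr9:103305187-103305216, plus strand: ccgctcggttgGCGCGAAAgtcggttcccg
Mdc1, chr17:35841248-35841497, plus strand: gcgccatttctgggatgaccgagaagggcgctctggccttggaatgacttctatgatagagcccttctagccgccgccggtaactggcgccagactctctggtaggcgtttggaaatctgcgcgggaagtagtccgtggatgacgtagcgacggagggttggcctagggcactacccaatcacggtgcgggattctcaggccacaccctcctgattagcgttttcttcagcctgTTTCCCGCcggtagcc
Counted to the RefSeq start, which differs from the GENCODE start given with each gene above, the first letter of the match lies 152 bases upstream in Chek2 (start 110839983), 129 in Topbp1 (start 103305327) and 16 in Mdc1 (start 35841498). The Topbp1 stretch ends past the GENCODE start of that gene.

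Relatives and partners of the members were described by lists fixed by name, with the shares of all genes given above as the background. Among relatives of the apical kinases and their chaperone, 4 of 7 genes fell and none rose in females at an adjusted p under 0.05 (limma), with a list median of -0.85. Smg1, the kinase of nonsense-mediated decay, fell by 1.97 on the log2 scale, and Tti1, a subunit of the chaperone that stabilizes ATM and ATR, fell by 1.50. Tti1 went from 114 and 84.1 FPKM to 38.2 and 30.4 FPKM. In males 2 of 7 fell and none rose, with a list median of -0.64. Mtor, the growth-regulating kinase, was called lower in males, from 66.7 and 37.5 FPKM to 17.7 and 10.2 FPKM (log2 fold change -1.82, adjusted p = 0.016, limma).

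Among the 14 tested genes of ATR activation and the checkpoint clamp, 5 fell and 3 rose in females, and 2 fell and 4 rose in males. The clamp paralog Hus1b was called lower in both sexes, with log2 fold changes of -2.46 and -1.91, and so was the clamp loader Rad17, with -1.59 and -1.42. Rad17 was at 79.6 and 69.6 FPKM in female controls and at 24.1 and 23.9 FPKM in female Snf5 CKO. In males it was at 67.0 and 70.3 FPKM and at 26.2 and 23.9 FPKM. Of the paralogous clamp subunits, Rad9b was called lower in females (log2 fold change -1.94) and Rad9a higher (1.58). The single-strand binding proteins Rpa1 and Rpa2 were called higher in females (1.70 and 1.13), and the fork protection proteins Timeless and Tipin were called higher in males (1.08 and 1.35). Atrip, the partner of ATR, shares its row with Trex1 and was left out.

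Among the genes of the chromatin response and of end resection, 4 of 15 tested fell and 4 rose in females, and 1 of 16 fell and 6 rose in males. H2afx, whose product is the phosphorylated histone that MDC1 binds, rose in both sexes, from 91.2 and 100.3 FPKM to 262 and 285 FPKM in females and from 65.1 and 67.9 FPKM to 310 and 361 FPKM in males. Its log2 fold changes were 1.50 (adjusted p = 0.00067, limma) and 2.31 (adjusted p = 0.0022, limma). The nuclease Dna2 was also called higher in both sexes (1.44 and 2.78), and Exo1, another resection nuclease, was called higher in males (1.97). The BRCA1 complex members Uimc1 and Bre and the resection factor Rbbp8 were called lower in females (-1.77, -1.37 and -1.53), and Brcc3, of the same complex as Uimc1, was called higher (1.26). Bre was called higher in males (1.01). Rnf8 shares its row with Cmtr1 in the female table and was left out there.

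Among 8 genes of non-homologous end joining, 3 fell and 2 rose in females, and 2 fell and 2 rose in males. Xrcc4, the partner of the end-joining ligase, was called lower in females (log2 fold change -1.18) and higher in males (1.34). Nhej1 was called lower in females (-1.89), and the polymerase Polm was called higher in males (1.13).

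Among 8 checkpoint outputs, 1 fell and 6 rose in females, and 3 fell and 5 rose in males. Trp53 and Cdkn1a, an inhibitor of cyclin-dependent kinases, were called higher in both sexes, with log2 fold changes of 4.36 and 3.68 in females and 2.71 and 3.09 in males. These RNA values do not measure the activity of p53, the product of Trp53. The ubiquitin ligase gene Mdm2 fell in females (-0.58, adjusted p = 0.049, limma) and in males (-0.83, adjusted p = 0.025, limma), under the size limit of a call. The phosphatase Ppm1d was called higher in females (1.17) and lower in males (-1.41). The mitotic phosphatase Cdc25c was called higher in females (2.57), and the kinase Wee1 was called higher in males (1.77).

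Of 10 proliferation genes, 6 rose and 1 fell in females, and 9 rose and none fell in males. In females Ccnb1, Ccna2, Mcm2 and Rrm2 had the largest increases (log2 fold changes 4.20, 2.24, 2.02 and 1.85). In males Rrm2, Ccne1, Mki67 and Cdk1 had the largest (3.25, 2.75, 2.28 and 1.82). This list moved in the same libraries as Chek1, Chek2, Mdc1 and Topbp1 in males. Female libraries had a list median of 1.26. Beside it stood female log2 fold changes of 1.88 for Chek2, 0.13 for Chek1, -2.02 for Mdc1 and -1.37 for Topbp1. The part of proliferation in the members' differences was not tested in either sex.

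**Figure D4:**
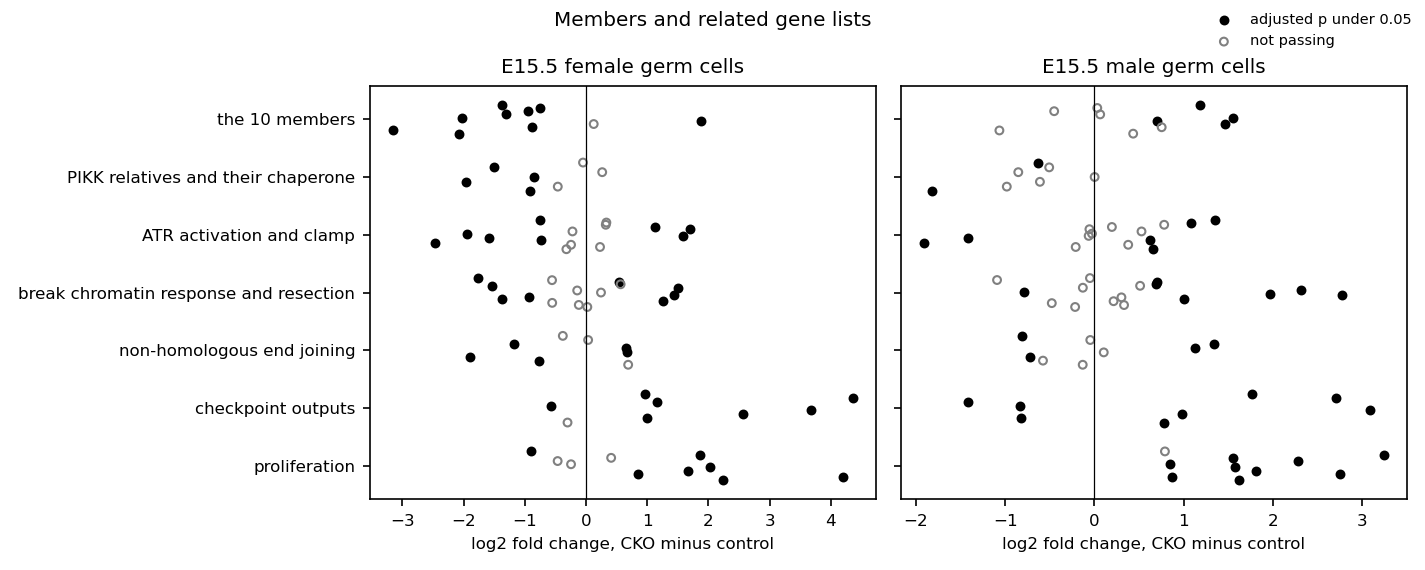
Log2 fold change, Snf5 CKO minus control, of the 10 members and of the genes in 6 related lists, females on the left and males on the right, with 2 libraries per group. Filled points passed an adjusted p under 0.05 (limma) and open points did not; the members lie mostly left of 0 in females, and the proliferation genes mostly right of 0 in both sexes.

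Markers of other gonadal cells moved with genotype as well. The shares of all genes given above are the background here too. At an adjusted p under 0.05, 34.7% of all genes fell and 27.0% rose in females, and 25.3% fell and 21.0% rose in males. In females all 5 pre-granulosa markers rose, with a summed level of 4.82 and 7.67 FPKM in control and 22.8 and 20.6 FPKM in Snf5 CKO, and Foxl2 was at 2.07 FPKM or less. In males all 4 tested Sertoli markers of 5 rose, with sums of 31.8 and 25.3 FPKM in control and 130 and 183 FPKM in Snf5 CKO, led by Amh. Leydig markers went the other way in males, with 2 of 4 tested called lower and sums of 49.7 and 25.5 FPKM in control and 8.91 and 5.08 FPKM in Snf5 CKO. Stromal markers were lower in males (2 of 2 tested called, sums of 13.6 and 7.24 against 2.89 and 2.09 FPKM), and 1 of 2 tested was lower in females. Of blood and endothelial markers, Pecam1, which germ cells also express, was called higher in females, and none of 2 tested passed in males. In the other sex these lists were mostly below the filter: in females 1 Sertoli marker was tested and rose (Amhr2), with Amh and Sox9 at 0.132 FPKM or less, and 1 Leydig marker was tested and did not pass. In males 1 of 2 tested pre-granulosa markers was called lower (Rspo1), and Foxl2 was at 0.105 FPKM or less. Insl3, Pdgfra and Hba-a1 share rows with other genes and were left out. Of the germ cell markers, Pou5f1, Dnd1, Nanos3 and Kit were called higher in females, whereas Dnd1 and Nanos3 were called lower and Kit higher in males. Ddx4 fell in males under the size limit of a call (log2 fold change -0.93, adjusted p = 0.036, limma), and Dazl passed in neither sex. The part of these markers in the members' differences was not tested.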

How the data were processed

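RNA of E15.5 germ cells (8 libraries, 2 per sex and genotype) was amplified with SMART-Seq v4, made into Nextera XT libraries without strand information, mapped by the authors with TopHat and quantified with Cufflinks on mm10; the submitters' processing notes name TopHat2 2.2.1 and Cuffdiff 2.1.1, and the annotation version and library scaling are not given in the sources used here. The authors deposited 1 table per sex of FPKM values. The authors' 16 columns of confidence bounds were not used. Rows without a gene name (4737 of 29018 in females, 6272 of 30216 in males) were left out, and of several rows of a gene the one highest on average was taken.

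The 2 tables were analysed separately by limma 3.58.1 (R 4.3.3): log2(FPKM + 1) values of genes averaging 1 FPKM or more went into lmFit and eBayes with trend, two-sided, with Benjamini-Hochberg adjustment. The script was tested on simulated data. The named genes were the 10 members, Smarcb1 and, in each list, the genes called in a sex, at most the 4 with the largest change per direction; Tti1, H2afx and other list genes are named by this rule, and Mdm2, 1700065D16Rik and the neighbouring genes were chosen after their values were seen. The members, the lists and the motifs were chosen with earlier results of these data known.

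Replicate numbers were taken as a shared batch, since the labels name the raw files of replicates 1 and 2 in different styles in every group and the male columns call the numbers experiments. The deviations of control and Snf5 CKO replicates correlated across genes at r = 0.50 in females and 0.61 in males. The alternatives changed the pseudocount (0.1), the filter (none, or an average of 5 FPKM), the scaling (common sum, median of ratios), the moderation (without trend, or none), the scale (linear FPKM), the row choice (summed rows) and the libraries (replicate block, each left out). Positions and strands are from GENCODE M21 on GRCm38, of which mm10 is the UCSC name. Figures were drawn with matplotlib 3.10.9.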

Additional observations from a re-analysis of the deposited data

Results flagged for a closer look

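Mdc1 and Topbp1 were singled out because every Snf5 CKO library lay on one side of both controls in females and on the other side in males. The log2 fold change of Mdc1 was -2.02 in females and 1.56 in males, and that of Topbp1 was -1.37 in females and 1.18 in males. The Mdc1 value of male Snf5 CKO replicate 2 was marked as a failed quantification, and the male Topbp1 call was lost in 8 of 14 settings. The difference between the sexes in these log2 fold changes was not tested, since each sex was fitted alone. For comparison, 3 members (Atr, Nbn and Chek2) were separated in the same direction in both sexes. Separation was common among all genes. The Snf5 CKO pair was below the control pair for 45.1% and above it for 36.4% of genes in females. The male shares were 40.0% and 34.6%. The share of all genes separated in opposite directions in the 2 sexes was not computed, so these 2 members are a description.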

How the results depend on the processing

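Over 14 alternatives per member, 127 of 140 values in females and 109 of 140 in males kept their direction and their side of the threshold. In females 12 no longer passed an adjusted p of 0.05 and 1 reversed, and in males 17 no longer passed it, 7 newly passed it and 7 reversed. Without moderation of the variances, 1054 genes were called lower and 870 higher in females, with 3 members lower and the log2 fold change of Smarcb1 at -2.48 (adjusted p = 0.056, limma), and 369 and 278 in males, with 0 members higher. At a mean of at least 5 FPKM, where fewer genes were tested, 1347 male genes were called lower. With the replicate block 1 male member (Atr) was called lower, and 41.2% of all male genes were lower at an adjusted p under 0.05 alone. Among the members only male Atr, Nbn and Brca1 changed their side of the threshold with the block. Counts of members called with each library left out are not given, since a single library then remains in a group. The reversed values were all of members that had not passed. They were Chek1 at -0.014 in females without control replicate 2 (up to 0.26 with another library left out), and in males Mre11a at -0.11 and Rad50 at -0.15 after rescaling to a common sum, Mre11a at -0.16 and Rad50 at -0.17 without control replicate 2, and Atm at -0.19, Mre11a at -0.09 and Rad50 at -0.15 without Snf5 CKO replicate 1. With another male library left out these 3 reached 1.06 (Atm), 0.29 (Mre11a) and 0.23 (Rad50). The cause was not tested. Median-of-ratios rescaling moved the median of all genes from -0.13 to 0.02 in females and from -0.07 to 0.07 in males, and the common sum moved the male one to -0.26 and the share of higher calls from 45.1% to 33.8%. The depth is unknown, and 2 libraries per group limit every interval.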

Other observations

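Replicate 2 was below replicate 1 for all 10 members in each of the 4 groups, whereas this held for 58.4% and 58.2% of all genes in female control and Snf5 CKO and for 52.9% and 50.9% in the male groups. Of the 10 members, 7 belong to the longest of 3 equal classes of genes by transcript length. In that class the median of replicate 2 minus replicate 1 was between -0.27 and -0.18 on the log2 scale in the 4 groups, and in the shortest class it was between 0.12 and 0.28. Genotypes were compared over both replicates, so this pattern enters the spread of each member.

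Of the 10 members, 5 share a start region with a protein-coding gene on the opposite strand within 1000 bases. Other kinds of RNA, such as the antisense RNA at Atr, were not counted. The share of all genes with such a neighbour was not computed. These neighbours were looked at after the members' values were known. Npat, a histone gene activator that starts 306 bases from Atm, was at 44.3 and 41.8 FPKM in female controls and at 12.6 and 11.2 FPKM in female Snf5 CKO (log2 fold change -1.78, adjusted p = 0.00026, limma), beside -2.08 for Atm. Ankrd49, which overlaps the start of Mre11a, was at 124 and 112 FPKM in female controls and at 38.3 and 37.1 FPKM in female Snf5 CKO (-1.62, adjusted p = 0.00033, limma), beside -1.31 for Mre11a. Nbr1, an autophagy receptor next to Brca1, fell in females as well (-0.89, adjusted p = 0.020, limma). Hscb, next to Chek2, had log2 fold changes of 0.04 in females (adjusted p = 0.86, limma) and 0.00 in males, beside 1.88 and 0.71 for Chek2. In males Ankrd49 rose (0.91, adjusted p = 0.016, limma), beside 0.07 for Mre11a. Over all 793 such pairs tested in females, 64.7% had the same sign and 11.1% were both called in the same direction. In males these were 58.1% and 3.83% of 783 pairs, and the signs of Npat (-0.36) and Atm (0.44) and of Nbr1 (-0.11) and Brca1 (0.76) were opposite. The fifth neighbour, 1300017J02Rik beside Topbp1, was not among the genes tested under its own name in either sex and has no value.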
